A study of Mus musculus with 32 samples.

Results

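The oviduct and the ovary of the same mice were compared by RNA sequencing of whole tissue. The comparison takes the 3 libraries labelled normal oviduct against the 3 labelled normal ovary, 6 of the 32 libraries of the series. Both groups are normal control tissue of wild-type female C57Bl/6 mice, and no agent or transgene is named for them. Their age and the stage of their oestrous cycle are not given in the sources used here. The other 26 libraries are tumours of mouse models of carcinoma arising from the ovarian surface or the oviduct, and were not used. The number in each title pairs an oviduct with the ovary of the same animal, so the animals are called 1, 2 and 3 below and entered the test as a block. Replicates come from different animals within each tissue.

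The oviduct (the fallopian tube of the mouse) carries eggs and early embryos in a fluid made by its secretory epithelial cells and moved by its ciliated cells and its smooth muscle. It develops from the Müllerian duct, whose identity rests on transcription factors such as Pax2, Pax8 and the Hox genes. The ovary is a gonad, in which granulosa, theca and luteal cells surround the oocytes and make steroid hormones from cholesterol under the control of pituitary gonadotropins.

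Assigned counts ran from 16256764 to 20514825 in the oviduct libraries and from 14129112 to 18125180 in the ovary libraries. Values are given as CPM (counts scaled to a common library total) when a gene is compared between tissues, and as TPM (which also divides by gene length) when genes are compared with each other. Differences are log2 fold changes of oviduct over ovary with their standard error, from the quasi-likelihood test of edgeR with n = 3 animals. A gene was called at an adjusted p below 0.05 (Benjamini-Hochberg, over all genes tested). The labelled tissues carried their defining transcripts. Ovgp1, Foxj1 and Krt18 were higher in the oviducts, and Star and Foxl2 were lower there than in the ovaries. Zp3, of the oocyte, was present in all ovaries, but also in oviducts 1 and 3, and was not called.

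The oviduct libraries were not alike in their content of ovarian transcripts. Of the oocyte markers with at least 10 CPM in the ovary (19 genes), the median level in the oviduct was 37.3%, 1.06% and 31.5% of that in the ovary of the same animal, for animals 1, 2 and 3. The granulosa cell markers (15 genes) stood at 23.6%, 1.64% and 15.5%, and the luteal and theca cell markers (13 genes) at 12.9%, 2.35% and 7.91%. Oviduct 2 was therefore low in the transcripts of all 3 ovarian cell types, and oviducts 1 and 3 were not. Over all tested genes with a mean of at least 10 CPM in the ovary, 174 stood at most at 5% of the level in the own ovary in oviduct 2, against 5 genes in oviduct 1 and 13 in oviduct 3. Leaving out the members of the lists read here, these counts were 126 in oviduct 2, 3 in oviduct 1 and 8 in oviduct 3. In the other direction the cilia markers of the ovary libraries were low, with a median of 1.62%, 1.02% and 1.15% of the level in the oviduct of the same animal. Oocytes are not part of the oviduct wall, but the source of these transcripts was not tested. Medians without oviducts 1 and 3, some with counts, are therefore given for lists in which most calls were lower. They are also given for other lists where a count or the median moved by over 1.5 times. These values come from a fit of 1 oviduct against 3 ovaries in which the lone oviduct is assumed to vary like the ovaries. Oviduct 2 was singled out by its low level of the ovarian markers. Larger falls of ovarian genes in that fit follow from this choice and are no separate result.

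**Figure D1:**
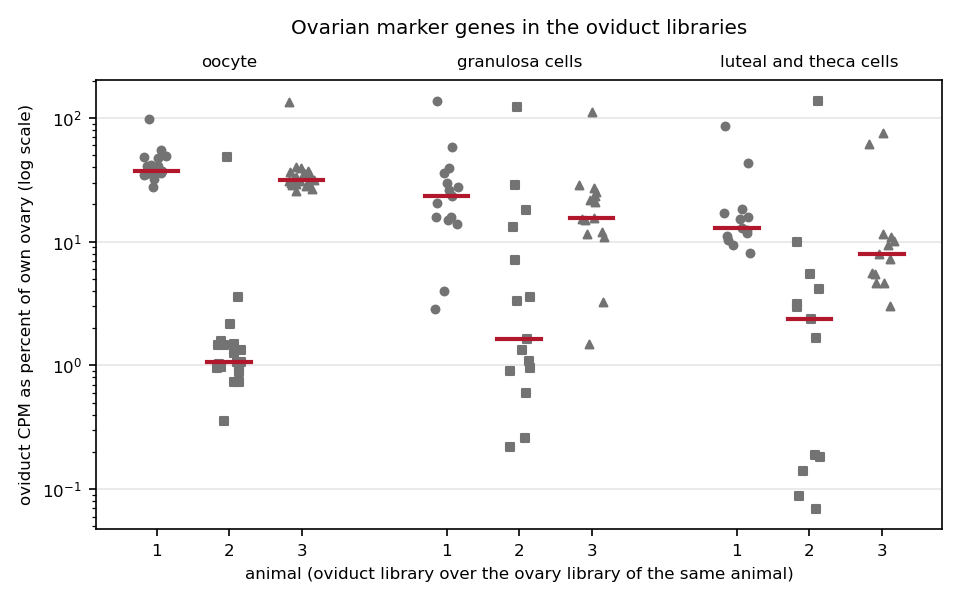
Each point is a marker gene with at least 10 CPM in the ovary, placed by its level in an oviduct library as a percent of that in the ovary of the same animal (log axis), and red bars are medians. The oocyte medians are 37.3%, 1.06% and 31.5% in animals 1, 2 and 3, and the granulosa and the luteal and theca medians are also lowest in animal 2.

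The tissues differed over much of the transcriptome. Of 17334 genes tested, 7971 were called (46%), with 4434 higher in the oviduct (25.6%) and 3537 lower (20.4%). Called differences were larger upward, since 616 genes were higher by over 5 log2 units and 15 were lower by as much. Oviducts 1 and 3 held ovarian marker transcripts, which limits how far ovarian genes can fall on average. The part of this in these counts was not tested. The median of all genes tested was 0.01. The 2 tissues did not overlap in 11219 of the genes tested (64.7%), so lack of overlap was common. Fewer cells of a type and less RNA per cell cannot be told apart in such bulk samples. Leaving out animal 3 left 4076 calls, 2724 higher and 1352 lower. On length-scaled values, limma on log2(TPM + 1) called 3423 genes higher of 7744 (44.2%, against 55.6% in the count test), with a median of all genes of -0.11. Without oviducts 1 and 3 there were 8519 calls, 4523 of them higher.

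Among the 15 largest differences upward were genes of secreted and epithelial proteins with no count, or a single one, in the ovaries. Dcpp1 (GRCm38 chromosome 17, 23880876 to 23882853, ENSMUSG00000096445.1), a secreted protein of salivary glands and oviduct that acts on early embryos in mouse, had 101, 91.1 and 364 CPM in oviducts 1 to 3, against 0, 0 and 0 CPM in the ovaries. It was at least 1036-fold higher, measured against a floor of 3 counts per library, and oviduct 3 held the most. Its neighbour Dcpp2 had 94.3, 84.3 and 319 CPM in the oviducts and 0, 0 and 0 CPM in the ovaries, at least 926-fold higher. The ovaries held no count of either gene. The gene models overlap, since that of Dcpp2 runs on the same strand from 23880880 to 23900788 and so holds nearly all of Dcpp1. The 250 bases before each RefSeq start are printed because they show how alike these neighbours are there. Of 245 paired bases, 238 are identical (97.1%), and capitals mark the bases that differ or have no partner between the paired ends (RefSeq, GRCm38.p6, plus strand, chr17:23880626-23880875 and chr17:23898472-23898721).
Dcpp1: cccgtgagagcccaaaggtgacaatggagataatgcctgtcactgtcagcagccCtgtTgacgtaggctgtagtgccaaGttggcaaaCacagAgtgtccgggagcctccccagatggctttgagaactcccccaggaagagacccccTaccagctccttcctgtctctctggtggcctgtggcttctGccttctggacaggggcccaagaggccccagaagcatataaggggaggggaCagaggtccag
Dcpp2: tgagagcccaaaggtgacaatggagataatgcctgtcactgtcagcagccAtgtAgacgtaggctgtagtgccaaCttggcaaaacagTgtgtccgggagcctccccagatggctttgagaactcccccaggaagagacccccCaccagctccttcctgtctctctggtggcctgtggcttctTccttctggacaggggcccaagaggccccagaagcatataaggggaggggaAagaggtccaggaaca
The split of reads between overlapping models is uncertain, and the transcripts themselves were not compared. The third copy Dcpp3 had 0, 0 and 0.857 CPM in the oviducts and 0, 0 and 0 CPM in the ovaries and was not tested.

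Other genes without a count in any ovary were Wfdc18, a small secreted protease inhibitor (at least 333-fold higher), Klk1b21 and Klk11, kallikrein serine proteases (at least 140-fold and 112-fold), Sowahb (at least 121-fold) and Wfdc15b (at least 71.6-fold). Kallikrein genes lie in a family of close copies, so their split is uncertain too. Fndc7 had 181, 354 and 294 CPM in oviducts 1 to 3, against 0.137, 0 and 0.161 CPM in the ovaries, a log2 fold change of 11.37 ± 0.38 (adjusted p = 0.000102). Fermt1, which links integrins to actin in epithelial cells, had 39.7, 51.7 and 50 CPM in the oviducts, and Uox, the urate oxidase, had 58.2, 44.1 and 37.8 CPM. Cdhr3, a cadherin of ciliated cells, had 47.7, 83.1 and 53 CPM. Each of these last 3 genes had a single count over the 3 ovaries, so no fold is given.

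Among the 15 largest differences downward were genes of steroid synthesis and of the follicle. Cyp19a1 (GRCm38 chromosome 9, 54165937 to 54268110, ENSMUSG00000032274.9), the aromatase that makes oestradiol, had 4.26, 0.161 and 0.807 CPM in oviducts 1 to 3, against 148, 62.3 and 53.7 CPM in the ovaries (log2 fold change -5.95 ± 0.47, adjusted p = 0.000773). Every ovary was above every oviduct, and oviduct 1 was the highest of the 3. Cyp4f18 and Cyp4f14, cytochrome P450 hydroxylases, fell by 5.58 and 4.83 log2 units. Plekhg4, a guanine nucleotide exchange factor, fell by 5.28 and Onecut2, a homeobox factor, by 5.26. Wnt10b, a Wnt ligand, fell by 4.69, Prss35, a protease-like protein of the follicle, by 4.56, and Lipg, an endothelial lipase, by 4.35. Slfn14 fell by 4.61. In oviduct 2 these 8 genes apart from Cyp19a1 stood between 0 and 8.26 CPM, in oviducts 1 and 3 between 0.655 and 75 CPM. Cyp4f18, Cyp4f14, Onecut2 and Slfn14 were not called without animal 3 (adjusted p 0.0528 to 0.125). Prss35 was not called without either animal 1 or animal 3 (adjusted p 0.0502 to 0.132).

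Levels per length name the most abundant transcripts of each tissue. Gm28661, Gm10925 and Gm28437 on chromosome 1 are copies that share reads with near-identical mitochondrial genes, and their levels are uncertain. Eef1a1, the translation elongation factor, averaged 7987 TPM in the oviduct and 7420 TPM in the ovary. Ovgp1 was among the 10 most abundant genes of the oviduct, at a mean of 4410 TPM in the oviduct against 2.81 TPM in the ovary. Myl6 and Tmsb4x, which act in actomyosin and actin, were in the same group at 4189 and 4153 TPM in the oviduct, against 1936 and 914 TPM in the ovary. In the ovary, the steroid enzymes Hsd3b1 and Cyp11a1 reached 4670 and 4400 TPM, against 347 and 205 TPM in the oviduct.

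**Figure D2:**
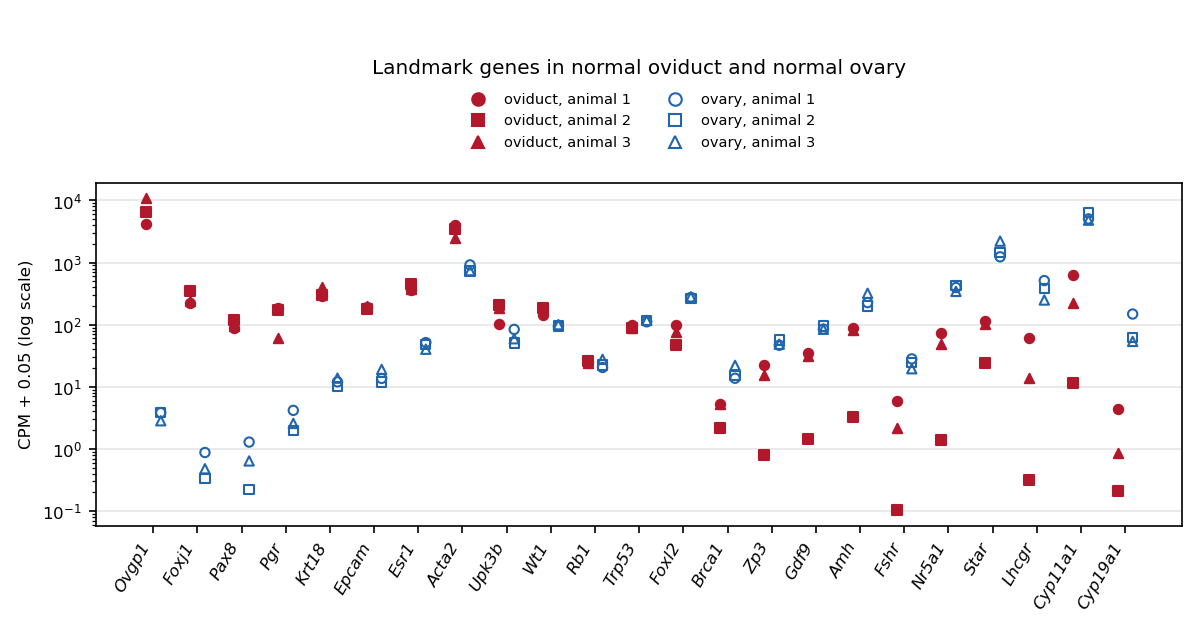
Levels of the 23 landmark genes (CPM + 0.05, log axis) in 3 oviducts (filled red) and 3 ovaries (open blue), with a symbol per animal and genes ordered by log2 fold change. Oviduct 2 (square) lies below oviducts 1 and 3 for the ovarian genes on the right, while the 3 oviducts lie close together for Foxj1, Pax8, Krt18, Epcam and Esr1.

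Transcription factors were read first. Among the Müllerian duct and oviduct secretory factors, 12 of 14 tested members rose, 2 fell and 0 were not called, with a median log2 fold change of 3.41, set against 25.6% higher, 20.4% lower and a median of 0.01 for all genes tested. The shares and the median of all genes tested are the reference for every list below. With animal 3 left out, the calls were 1 lower. Pax8 (GRCm38 chromosome 2, 24420560 to 24475599, ENSMUSG00000026976.15), a paired-box factor of Müllerian epithelium and of secretory cells, had 86.9, 118 and 95.8 CPM in oviducts 1 to 3, against 1.24, 0.17 and 0.59 CPM in the ovaries (log2 fold change 7.28 ± 0.45, adjusted p = 0.000374). Pax2, its relative, had 22.2, 27.6 and 25.2 CPM in the oviducts and 0.275, 0.283 and 0.214 CPM in the ovaries (6.57 ± 0.22, adjusted p = 0.000102). The groups did not overlap for either gene, and the 3 oviducts were close to each other. Foxa2, a forkhead factor of gland epithelium, rose by 7.31 ± 0.48, Msx2, a homeobox factor of the genital mesenchyme and epithelium, by 5.45 ± 0.71, and Sall1, a zinc finger repressor, by 5.19 ± 0.28. The pair that fell were Tcf21, a helix-loop-helix factor of mesenchyme (-1.50 ± 0.20), and Dach1, a transcriptional cofactor (-0.84 ± 0.16). Dach1 was not called without animal 3 (adjusted p = 0.0775).

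The epithelial identity factors had 14 members tested, of which 12 rose, 0 fell and 2 were not called, with a median log2 fold change of 4.01. Grhl2, a grainyhead factor that holds epithelial junction genes active, had 42, 48.3 and 41.2 CPM in oviducts 1 to 3, against 0.0687, 0.453 and 0.107 CPM in the ovaries (7.65 ± 0.36, adjusted p = 0.000188). Spdef, an ETS factor of secretory cells, had 29, 36 and 43.2 CPM in the oviducts and 0.344, 0.113 and 0.161 CPM in the ovaries (7.46 ± 0.33). Elf3 and Ehf, other ETS factors of epithelia, were higher by 5.83 ± 0.26 and 5.10 ± 0.11, and Ovol2, a repressor of mesenchymal genes, by 5.86 ± 0.61. Elf5 had 3.11, 4.35 and 3.13 CPM in the oviducts and 2 counts over all ovaries. The members that were not called were Grhl1, with 4.26, 4.24 and 6.25 CPM in the oviducts and 3.44, 2.83 and 2.52 CPM in the ovaries, and Grhl3, with 0.318, 0.376 and 0.807 CPM in the oviducts and 0.55, 1.53 and 1.72 CPM in the ovaries.

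Factors of multiciliogenesis had 10 members tested, of which 7 rose, 1 fell and 2 were not called, with a median log2 fold change of 3.79. Calls without animal 3 numbered 0 lower. Foxj1 (GRCm38 chromosome 11, 116330704 to 116335399, ENSMUSG00000034227.7), the forkhead factor that turns on the motile cilium programme, had 222, 346 and 241 CPM in oviducts 1 to 3, against 0.824, 0.283 and 0.429 CPM in the ovaries (9.05 ± 0.35, adjusted p = 0.000125). Oviduct 2 was the highest, and no ovary passed 1 CPM. Gmnc, which starts the multiciliated fate, had 3.88, 5.15 and 1.71 CPM in the oviducts and no count in the ovaries, at least 20-fold higher. Myb, Trp73 and Rfx2, which act in the same cascade, were higher by 6.29 ± 0.33, 5.12 ± 0.24 and 2.46 ± 0.12. Mcidas, a partner of Gmnc in that step, had 0.191, 1.02 and 0.0504 CPM in the oviducts and 0, 0 and 0 CPM in the ovaries and was not tested. Ccno, which serves centriole amplification, went the other way, with 11.3, 4.08 and 8.57 CPM in the oviducts and 24.4, 22.1 and 23.9 CPM in the ovaries (-1.65 ± 0.28, adjusted p = 0.00772). The E2F factors E2f4 and E2f5, which pair with Gmnc and Mcidas and also act in the cell cycle, were not called (-0.12 ± 0.10 and -0.12 ± 0.10). Ccno was not called without animal 3 (adjusted p = 0.0542).

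Of the Hox genes, which give position along the body and the genital tract, 20 of 30 tested members rose, 3 fell and 7 were not called, with a median log2 fold change of 1.88. Leaving out animal 3 gave 0 lower. The clusters are given one by one. Hoxa genes from Hoxa2 to Hoxa11 rose, by 1.53 ± 0.34 for Hoxa4 up to 6.24 ± 0.56 for Hoxa11, a factor best known in the uterus. Hoxa9, the member known as a factor of the mouse oviduct, had 42.1, 43.8 and 42.8 CPM in oviducts 1 to 3, against 1.58, 1.98 and 1.29 CPM in the ovaries (4.74 ± 0.17, adjusted p = 0.00011). Hoxa10 had 37.9, 19.8 and 24.2 CPM in the oviducts and 0.893, 0.793 and 0.483 CPM in the ovaries (5.20 ± 0.25), and its level was highest in oviduct 1. Hoxb8 had 40.7, 36.5 and 44.3 CPM in oviducts 1 to 3, against 1.03, 1.08 and 0.804 CPM in the ovaries (5.37 ± 0.19), whereas Hoxb9, next to it in the cluster, had 6.16, 4.45 and 5.5 CPM in the oviducts and 9.07, 14.3 and 11.2 CPM in the ovaries (-1.09 ± 0.26, adjusted p = 0.0236). Differences of the Hoxc genes were below 1 log2 unit. Hoxc6 had 44.9, 54.3 and 65.2 CPM in the oviducts and 49.1, 53.2 and 51 CPM in the ovaries (0.09 ± 0.12, adjusted p = 0.571), and Hoxc8, the largest change of that cluster, rose by 0.98 ± 0.23. In the Hoxd cluster, Hoxd11 rose by 2.79 ± 0.33 while Hoxd4 and Hoxd8 fell by 0.49 and 0.53. Hoxb9 and Hoxd4 were not called without either animal 2 or animal 3 (adjusted p 0.0543 to 0.116). Hoxd8 was not called without animal 3 (adjusted p = 0.0894).

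**Figure D3:**
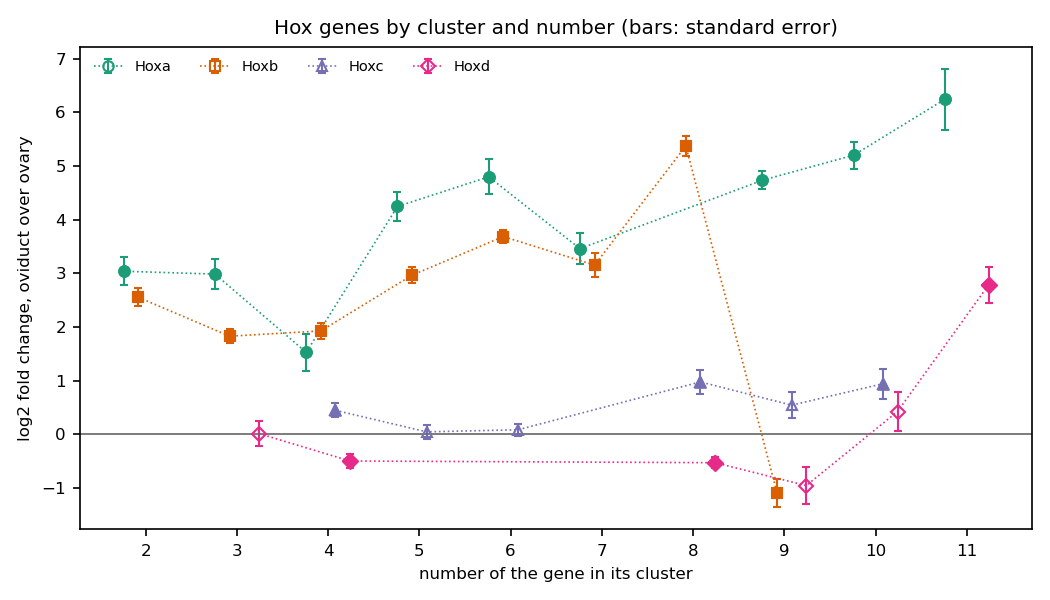
Log2 fold changes of Hox genes numbered 2 to 11 in their clusters (oviduct over ovary, bars are standard errors) by that number, with called genes filled. Hoxa and Hoxb genes 2 to 8 lie above 1.5, Hoxc genes lie between 0 and 1, and Hoxb9, Hoxd4, Hoxd8 and Hoxd9 lie below 0.

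Gonadal somatic factors had 19 members tested, of which 1 rose, 17 fell and 1 was not called, with a median log2 fold change of -1.94. Without animal 1 the fit called 11 lower, and without animal 3 the fit called 9 lower. The fit without oviducts 1 and 3 had a median of -2.53. Nr5a1 (GRCm38 chromosome 2, 38692656 to 38714542, ENSMUSG00000026751.14), the nuclear receptor that drives steroid enzyme genes, had 73.5, 1.34 and 48.5 CPM in oviducts 1 to 3, against 397, 432 and 343 CPM in the ovaries (-3.90 ± 1.19, adjusted p = 0.0466). Gata4, a zinc finger factor of granulosa and theca cells, had 53.4, 2.68 and 43.6 CPM in oviducts 1 to 3, against 326, 291 and 261 CPM in the ovaries (-3.66 ± 0.90, adjusted p = 0.0245). In both cases oviducts 1 and 3 lay far above oviduct 2, and all ovaries lay above all oviducts. Without oviducts 1 and 3 the log2 fold changes were -8.18 and -6.77. Nr5a2 fell by 3.80, Lhx9, a factor of the early gonad, by 2.97, and Irx3, an Iroquois factor of granulosa cells, by 2.75. Foxl2, which keeps granulosa cell identity, had 99, 47.2 and 75.9 CPM in oviducts 1 to 3, against 274, 262 and 280 CPM in the ovaries (-1.94 ± 0.20, adjusted p = 0.00178). Its level in oviduct 2 was 47.2 CPM, so this factor was not confined to the oviducts with ovarian transcripts. Wt1, a zinc finger factor of coelomic epithelium and its derivatives, went the other way, with 146, 184 and 186 CPM in oviducts 1 to 3, against 94.2, 95 and 100 CPM in the ovaries (0.83 ± 0.10, adjusted p = 0.00261). Nr5a1 and Gata4 were not called without either animal 1 or animal 3 (adjusted p 0.0505 to 0.132). Nr5a2 and Lhx9 were not called without animal 3 (adjusted p 0.0516 to 0.0631).

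Germ cell factors had 10 members tested, of which 0 rose, 1 fell and 9 were not called, with a median log2 fold change of -2.21. With animal 2 left out, the calls were 7 lower, and with animal 3 left out, the calls were 0 lower. Leaving out oviducts 1 and 3 gave a median of -7.08. DESeq2 called 4 lower, limma on log2(TPM + 1) called 10 and the fit without the animal block 3. Taf4b, a subunit of the basal transcription machinery that is rich in the ovary, fell by 1.40. Nobox, a homeobox factor of oocytes, had 5.59, 0.0536 and 5.8 CPM in oviducts 1 to 3, against 17.6, 15.1 and 14.9 CPM in the ovaries (-2.50 ± 0.95, adjusted p = 0.0827), and Figla, a helix-loop-helix factor of oocytes, had 0.636, 0 and 0.101 CPM in the oviducts and 1.03, 1.02 and 0.697 CPM in the ovaries. Oviduct 2 held almost none of these transcripts, and the other oviducts held a lower level than the ovaries. Pou5f1, the pluripotency factor that oocytes also hold, had no count in oviduct 2. Taf4b was not called without animal 3 (adjusted p = 0.056).

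Secreted proteins were read next. Oviduct fluid proteins had 19 members tested, of which 15 rose, 3 fell and 1 was not called, with a median log2 fold change of 6.09. Calls were 14 higher and 3 lower without oviducts 1 and 3, at a median of 3.14. The medians of the log2 ratios were 7.04, 3.31 and 6.95 in animals 1 to 3, so animal 2 had the smallest. Ovgp1 (GRCm38 chromosome 3, 105973711 to 105987423, ENSMUSG00000074340.9), the oviduct-specific glycoprotein that binds the egg coat, had 4211, 6417 and 10790 CPM in oviducts 1 to 3, against 3.78, 3.79 and 2.79 CPM in the ovaries (10.91 ± 0.51, adjusted p = 0.000177). Oviduct 3 held the most, as it did for Dcpp1 and Dcpp2, and no ovary came near any oviduct. Ltf, lactotransferrin, an iron-binding defence protein whose gene responds to oestrogen in the genital tract, had 1399, 1188 and 2092 CPM in oviducts 1 to 3, against 0.137, 0.793 and 0.322 CPM in the ovaries (11.80 ± 0.53). Agr2, a disulfide isomerase needed for mucin folding, had 44.4, 37.8 and 98.2 CPM in the oviducts and 3 counts over the ovaries. Pigr, which carries immunoglobulins across epithelia, had 41.6, 7.83 and 103 CPM in the oviducts and 0.137, 0.0566 and 0.214 CPM in the ovaries (8.45 ± 0.24). Wfdc2, a protease inhibitor also known as HE4, had 151, 103 and 107 CPM in the oviducts and 0.55, 0.566 and 0.751 CPM in the ovaries (7.54 ± 0.19). The members that fell were Clu, an extracellular chaperone, Cpe, a carboxypeptidase of peptide hormone processing, and Gpx3, a plasma glutathione peroxidase (-1.36 ± 0.22, -1.33 ± 0.13 and -0.69 ± 0.20). Muc16, a mucin of coelomic and Müllerian epithelium, was not called (15.5, 24.4 and 19.2 CPM in the oviducts and 15.6, 11.7 and 8.9 CPM in the ovaries). Gpx3 was not called with any 1 animal left out (adjusted p 0.0646 to 0.0999).

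Several secreted and transport genes also set oviduct 2 apart from oviducts 1 and 3. Clca1, a secreted regulator of a chloride channel, had 428, 0.429 and 550 CPM in oviducts 1 to 3, against 0, 1.42 and 0.214 CPM in the ovaries and was not called (8.28 ± 2.61, adjusted p = 0.0508). Without oviducts 1 and 3 its log2 fold change was -0.37 (adjusted p = 0.869), so its high values were those of oviducts 1 and 3. Prap1, a proline-rich secreted protein of epithelia, had 37.4, 1.07 and 252 CPM in oviducts 1 to 3, against 0, 0.113 and 0 CPM in the ovaries. Muc4 and Sprr2f, picked after their values were seen, had 70.3, 2.31 and 61 CPM and 309, 6.22 and 130 CPM in the oviducts, against 0.0687, 0.34 and 0 CPM and 0.137, 1.87 and 0.0536 CPM in the ovaries. Lcn2, an iron-scavenging lipocalin, had 432, 23.4 and 398 CPM in oviducts 1 to 3, against 3.16, 2.26 and 2.9 CPM in the ovaries (6.09 ± 0.85, adjusted p = 0.00429). Each of these 5 genes was lowest in oviduct 2, like the ovarian markers. Unlike those markers, they were near 0 or low in every ovary, including the ovaries of animals 1 and 3. Ltf, Ovgp1 and Dcpp1 showed no such gap, since oviduct 2 held 1188, 6417 and 91.1 CPM of them. The ovarian marker content of the oviducts moved with these 5 genes, and its part in their levels was not tested. Sprr2f has close copies in its family, so its count is uncertain.

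**Figure D4:**
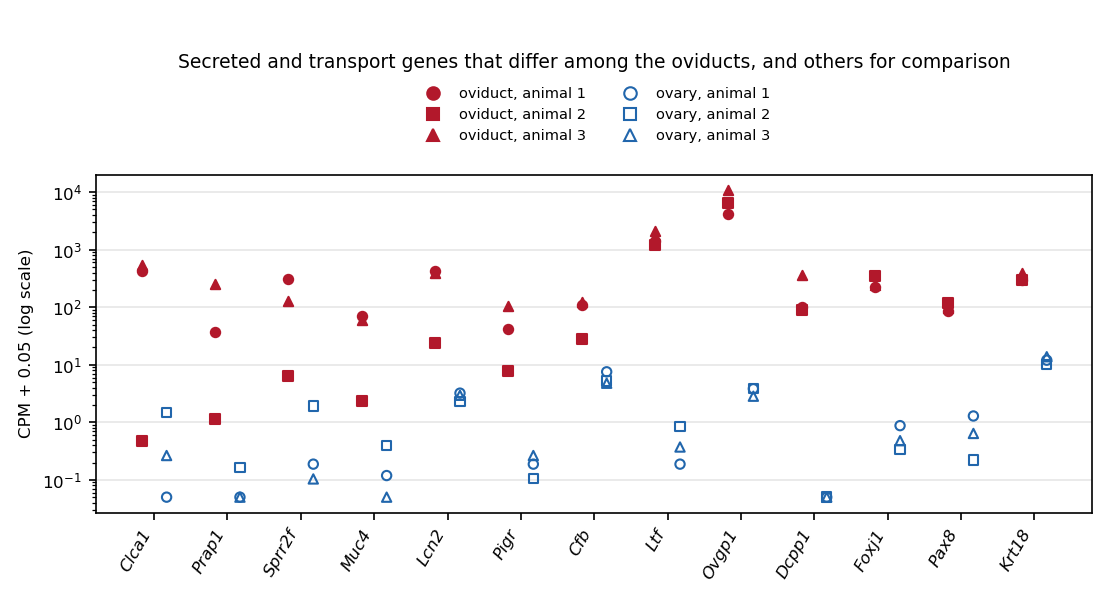
Levels of 13 genes (CPM + 0.05, log axis) in 3 oviducts (filled red) and 3 ovaries (open blue), with a symbol per animal. Oviduct 2 (square) is the lowest oviduct for the first 7 genes, from Clca1 to Cfb, whose ovary levels stay under 8 CPM, while Foxj1, Pax8 and Krt18 are close among the oviducts.

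Among innate defence proteins, 9 of 14 tested members rose, 1 fell and 4 were not called, with a median log2 fold change of 2.20. Calls without animal 3 numbered 5 higher. Beside Ltf and Lcn2, Pglyrp1, a receptor for bacterial peptidoglycan, had 23.8, 13.6 and 35.1 CPM in oviducts 1 to 3, against 0.893, 0.396 and 0.59 CPM in the ovaries (5.24 ± 0.28). Cfb and C3, of the alternative pathway of complement, were higher by 3.69 ± 0.44 and 3.56 ± 0.39. C3 was at 3028, 2722 and 4869 CPM in the oviducts and 532, 163 and 289 CPM in the ovaries, so it was abundant in both tissues. Slpi, a protease inhibitor of mucosal fluids, was higher by 2.82 ± 0.50. The adipocyte complement factor Cfd was not called and had 457, 488 and 882 CPM in the oviducts and 493, 55.1 and 97.2 CPM in the ovaries. Slpi was not called without animal 3 (adjusted p = 0.0719).

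Of the TGF-beta family and its binding proteins, 3 of 14 tested members rose, 7 fell and 4 were not called, with a median log2 fold change of -1.64. Leaving out animal 3 gave 4 lower. With oviduct 2 as the lone oviduct, 10 of 14 were lower, at a median of -1.63. The activin and inhibin subunits were lower. Inhba had 22.1, 3.49 and 11.5 CPM in oviducts 1 to 3, against 559, 363 and 357 CPM in the ovaries (-5.36 ± 0.46, adjusted p = 0.000944), and Inha had 381, 18.1 and 299 CPM in oviducts 1 to 3, against 2411, 1988 and 1958 CPM in the ovaries (-3.84 ± 0.97, adjusted p = 0.0267). For Inhba and Inha all ovaries were above all oviducts, and oviduct 2 was again the lowest. The tissues overlapped for Inhbb, given with the granulosa cell markers. Fst, which binds activin, fell by 3.52, and Bmp7 by 1.69. Amh, the anti-Müllerian hormone of granulosa cells, had 89.4, 3.27 and 80.6 CPM in oviducts 1 to 3, against 227, 200 and 320 CPM in the ovaries. It was not called (adjusted p = 0.0597), and without oviducts 1 and 3 its log2 fold change was -6.25. Tgfb2, Bmp4 and Gdf15 went the other way, higher by 1.07 ± 0.11, 1.17 ± 0.15 and 1.77 ± 0.36. Inha and Gdf15 were not called without either animal 1 or animal 3 (adjusted p 0.0506 to 0.0828).

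Wnt ligands and modulators had 18 members tested, of which 10 rose, 4 fell and 4 were not called, with a median log2 fold change of 1.05. Wnt7a, the epithelial ligand that patterns the Müllerian duct, had 11.8, 11.2 and 9.63 CPM in oviducts 1 to 3, against 0.344, 0.0566 and 0.268 CPM in the ovaries (5.61 ± 0.46, adjusted p = 0.000828). Rspo3 and Rspo1, secreted Wnt amplifiers, were higher by 4.25 ± 0.21 and 2.40 ± 0.25, and Wnt11 by 3.71 ± 0.19. The antagonists divided. Dkk2 and Sfrp5 were higher by 2.93 ± 0.22 and 3.87 ± 0.99, but Sfrp4, which luteal cells express, had 150, 67.1 and 114 CPM in oviducts 1 to 3, against 1350, 1628 and 1440 CPM in the ovaries (-3.81 ± 0.32, adjusted p = 0.00088). Wnt4, a ligand of ovary and Müllerian duct formation, fell by 1.75, and Wnt6 by 2.48. Wnt5a, a mesenchymal ligand, was close in both tissues at 131, 149 and 120 CPM in the oviducts and 100, 115 and 103 CPM in the ovaries (0.33 ± 0.08). Sfrp5 was not called without animal 3 (adjusted p = 0.0946). Wnt4 was not called without animal 1 (adjusted p = 0.0571).

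Other growth factors and peptides had 27 members tested, of which 14 rose, 3 fell and 10 were not called, with a median log2 fold change of 0.74. Without animal 3 the fit called 9 higher and 1 lower. Setting oviducts 1 and 3 aside gave 14 higher and 6 lower and a median of 0.63. Fgf1 had 20.2, 43.1 and 22.3 CPM in the oviducts and 2.82, 1.47 and 1.23 CPM in the ovaries (3.93 ± 0.42) and Fgf10, a mesenchymal signal to epithelium, 9.22, 18 and 14.9 CPM in the oviducts and 1.58, 0.849 and 0.912 CPM in the ovaries (3.64 ± 0.42). Igf1, which mediates growth hormone and oestrogen action, had 292, 330 and 116 CPM in oviducts 1 to 3, against 63.4, 52.2 and 49.4 CPM in the ovaries (2.04 ± 0.28), lowest in oviduct 3. Areg, an EGF receptor ligand, was higher by 2.46 ± 0.59, Edn1, a vasoconstrictor peptide, by 2.20 ± 0.38 and the IGF binding protein Igfbp6 by 1.99 ± 0.19. Ereg, an EGF-like factor of ovulation, and Adcyap1, the peptide PACAP, fell by 3.52 and 3.20, and Edn3 by 0.84. Vegfa, the main angiogenic factor, was not called, with 159, 172 and 205 CPM in the oviducts and 188, 185 and 206 CPM in the ovaries (-0.12 ± 0.09). Areg, Ereg and Adcyap1 were not called without animal 3 (adjusted p 0.0636 to 0.107). Edn3 was not called without either animal 2 or animal 3 (adjusted p 0.0661 to 0.0876).

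Receptors of related hormones differed in opposite directions in several cases. Among nuclear receptors, 8 of 19 tested members rose, 5 fell and 6 were not called, with a median log2 fold change of 0.26. With animal 1 left out, the calls were 2 lower, and with animal 2 left out, the calls were 3 lower, and with animal 3 left out, the calls were 5 higher and 1 lower. On log2(TPM + 1), limma called 3 higher. Esr1 (GRCm38 chromosome 10, 4611593 to 5005614, ENSMUSG00000019768.16), oestrogen receptor alpha, had 356, 452 and 372 CPM in oviducts 1 to 3, against 51.4, 48.3 and 40.2 CPM in the ovaries (3.08 ± 0.13, adjusted p = 0.000144). Esr2, oestrogen receptor beta, had 24.2, 0.536 and 14.8 CPM in oviducts 1 to 3, against 81.3, 89 and 95.5 CPM in the ovaries (-3.23 ± 0.92, adjusted p = 0.0379). The tissues did not overlap for either receptor, in opposite directions, and oviduct 2 held hardly any Esr2. Pgr, the progesterone receptor, had 187, 174 and 60.8 CPM in oviducts 1 to 3, against 4.12, 1.93 and 2.52 CPM in the ovaries (5.52 ± 0.37, adjusted p = 0.000455), with oviduct 3 below the other oviducts. Nr2f1 and Esrrg, orphan receptors, were higher by 2.81 ± 0.17 and 2.70 ± 0.34, and Pparg, a lipid-activated receptor, fell by 0.97. The glucocorticoid receptor Nr3c1 was not called (0.06 ± 0.13). Esr2 was not called without animal 3 (adjusted p = 0.143).

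Hormone and peptide receptors had 28 members tested, of which 15 rose, 7 fell and 6 were not called, with a median log2 fold change of 0.69. Calls without animal 3 numbered 6 higher and 4 lower. On log2(TPM + 1), limma called 9 higher. Rxfp1, the relaxin receptor, had 268, 181 and 134 CPM in oviducts 1 to 3, against 1.03, 0.736 and 0.375 CPM in the ovaries (8.10 ± 0.14, adjusted p = 6.6e-05). Vipr1 and Vipr2, receptors for vasoactive intestinal peptide, were higher by 3.05 ± 0.30 and 2.33 ± 0.66, and Ptger3 and Ptger4, prostaglandin E2 receptors, by 2.50 ± 0.30 and 2.01 ± 0.14. The receptors that fell included those of the gonadotropins and of luteal regression. Lhcgr, the LH receptor, had 60.1, 0.268 and 13.9 CPM in oviducts 1 to 3, against 513, 385 and 250 CPM in the ovaries (-4.85 ± 1.24, adjusted p = 0.0272), and Fshr, the FSH receptor, had 5.78, 0.0536 and 2.12 CPM in oviducts 1 to 3, against 28.1, 24.4 and 19.5 CPM in the ovaries (-3.62 ± 0.87, adjusted p = 0.0224). Ptgfr, the prostaglandin F2 alpha receptor, had 28, 15.1 and 31 CPM in oviducts 1 to 3, against 347, 504 and 567 CPM in the ovaries (-4.29 ± 0.31, adjusted p = 0.000564). Lhcgr and Fshr were near 0 in oviduct 2, while Ptgfr was present in all oviducts at a small part of the ovarian level. Prlr, the prolactin receptor, fell by 3.88. Vipr2 was not called without either animal 2 or animal 3 (adjusted p 0.0521 to 0.127). Lhcgr and Fshr were not called without animal 3 (adjusted p 0.113 to 0.123).

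Growth factor receptors had 32 members tested, of which 12 rose, 13 fell and 7 were not called, with a median log2 fold change of -0.18. Lower calls without oviducts 1 and 3 numbered 12 of 32, at a median of -0.15. Erbb3, a partner of ERBB2 that binds neuregulins, had 40.4, 50 and 65.1 CPM in oviducts 1 to 3, against 3.64, 3 and 3.38 CPM in the ovaries (3.94 ± 0.19), whereas Egfr had 52.5, 34.2 and 51.2 CPM in the oviducts and 103, 96.9 and 130 CPM in the ovaries (-1.27 ± 0.12). Met, the receptor of hepatocyte growth factor, was higher by 1.73 ± 0.17. Receptors of the TGF-beta family were mixed. Bmpr2, a BMP receptor, fell by 1.43, Acvr1, a receptor of BMPs and activins, by 1.30 and Tgfbr1 by 1.26. Tgfbr2 rose by 1.09 ± 0.10 and the activin receptors Acvr1b and Acvr2a by 0.97 ± 0.08 and 0.42 ± 0.10. Bmpr1a, Bmpr1b, Acvr2b and Tgfbr3 were not called (-0.21 ± 0.10, -0.46 ± 0.17, -0.75 ± 0.24 and 0.17 ± 0.12). Amhr2, the receptor of anti-Müllerian hormone, had 30, 3.97 and 27.3 CPM in the oviducts and 127, 120 and 131 CPM in the ovaries (-2.94 ± 0.59, adjusted p = 0.0129). Lgr5 and Lgr6, paralogous R-spondin receptors, parted. Lgr5 had 3.43, 3.92 and 4.74 CPM in oviducts 1 to 3, against 26.2, 35.3 and 29.9 CPM in the ovaries (-2.92 ± 0.16, adjusted p = 0.000279), and Lgr6 had 156, 133 and 46.9 CPM in oviducts 1 to 3, against 50.8, 38.3 and 33.6 CPM in the ovaries (1.31 ± 0.27, adjusted p = 0.0147). Amhr2 was not called without animal 3 (adjusted p = 0.0588).

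Metabolic genes were read by pathway. In steroid synthesis, 0 of 13 tested members rose, 9 fell and 4 were not called, with a median log2 fold change of -3.72. Leaving out animal 3 gave 5 lower. The fit without oviducts 1 and 3 had a median of -6.08. Cyp11a1 (GRCm38 chromosome 9, 58006411 to 58027023, ENSMUSG00000032323.13), which cuts the cholesterol side chain, had 629, 11.5 and 224 CPM in oviducts 1 to 3, against 5048, 6354 and 4820 CPM in the ovaries (-5.14 ± 1.37, adjusted p = 0.0309). Star (GRCm38 chromosome 8, 25806555 to 25815982, ENSMUSG00000031574.8), which brings cholesterol into mitochondria, had 116, 24.1 and 102 CPM in oviducts 1 to 3, against 1238, 1445 and 2213 CPM in the ovaries (-4.57 ± 0.54, adjusted p = 0.0025). Hsd3b1, which makes progesterone, had 731, 9.55 and 405 CPM in oviducts 1 to 3, against 4778, 5039 and 4033 CPM in the ovaries and was not called (adjusted p = 0.0535). In all 3 genes the oviducts lay below the ovaries and spread widely among themselves, with oviduct 2 lowest. Without oviducts 1 and 3 the log2 fold changes were -8.88, -6.08 and -8.92. Akr1c18, the enzyme that removes progesterone in rodents, fell by 5.54 and Fdx1, the electron carrier of Cyp11a1, by 3.72. Cyp17a1, the theca enzyme of androgen synthesis, was not called, with 185, 1.02 and 26.8 CPM in the oviducts and 1090, 1166 and 231 CPM in the ovaries. Its ovary levels spread too, with ovary 3 lowest. Cyp11a1, Akr1c18 and Fdx1 were not called without animal 3 (adjusted p 0.0553 to 0.126).

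Cholesterol synthesis and uptake had 23 members tested, of which 1 rose, 16 fell and 6 were not called, with a median log2 fold change of -1.01. Without animal 1 the fit called 0 higher, and without animal 3 the fit called 6 lower. Leaving out oviducts 1 and 3 gave 20 of 23 lower and a median of -1.26. Scarb1, the HDL receptor that feeds steroid cells, had 188, 77.2 and 161 CPM in oviducts 1 to 3, against 1196, 1422 and 1486 CPM in the ovaries (-3.36 ± 0.33, adjusted p = 0.00142). Hmgcs1 and Dhcr7, an early and a late enzyme of the pathway, fell by 2.22 and 2.37, and Fdps, which makes farnesyl diphosphate, by 2.21. Fdps was not called without animal 3 (adjusted p = 0.0717).

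Retinoid metabolism had 16 members tested, of which 3 rose, 5 fell and 8 were not called, with a median log2 fold change of 0.13. In total 50% were called, near the 46% of all genes tested. With animal 1 left out, the calls were 5 higher, and with animal 3 left out, the calls were 3 lower. With oviduct 2 as the lone oviduct, 4 of 16 were lower, at a median of -0.05. That fit called 6 higher. Cyp26a1 (GRCm38 chromosome 19, 37697798 to 37701536, ENSMUSG00000024987.6), which degrades retinoic acid, had 89.1, 115 and 92.4 CPM in oviducts 1 to 3, against 0, 0.226 and 0.214 CPM in the ovaries (9.25 ± 0.32, adjusted p = 0.000104). Of the enzymes that make retinoic acid, Aldh1a1 and Aldh1a2 went the other way. Aldh1a1 had 211, 57.8 and 126 CPM in oviducts 1 to 3, against 861, 693 and 740 CPM in the ovaries (-2.71 ± 0.32), and Aldh1a2 had 60.1, 42.8 and 38.6 CPM in the oviducts and 108, 125 and 103 CPM in the ovaries (-1.27 ± 0.16). Aldh1a3 was not called (6.16, 13.6 and 19 CPM in the oviducts and 9.14, 9.06 and 8.42 CPM in the ovaries), nor was the other degrading enzyme Cyp26b1 (4.45, 14.3 and 16.6 CPM in the oviducts and 16.6, 13.5 and 14.2 CPM in the ovaries). Rdh10, which oxidizes retinol, rose by 1.84 ± 0.10, and Stra6, a retinol carrier of the cell membrane, fell by 0.70. Stra6 was not called without animal 3 (adjusted p = 0.0553).

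Prostaglandin metabolism had 14 members tested, of which 8 rose, 3 fell and 3 were not called, with a median log2 fold change of 0.46. Calls without animal 1 numbered 5 higher. Hpgds, which makes prostaglandin D2, had 106, 134 and 166 CPM in oviducts 1 to 3, against 6.53, 3.57 and 2.52 CPM in the ovaries (5.05 ± 0.41, adjusted p = 0.000821), whereas Ptgds, the other synthase of that product, had 8.96, 7.4 and 11.4 CPM in the oviducts and 27.4, 8.78 and 25.8 CPM in the ovaries (-1.03 ± 0.28). Ptgs1 and Ptgs2, the cyclooxygenases, were higher by 1.51 ± 0.35 and 2.22 ± 0.52, and Ptges, which makes prostaglandin E2, was lower (-1.50 ± 0.19). Ptgds was not called without either animal 1 or animal 3 (adjusted p 0.119 to 0.18). Ptgs1 and Ptgs2 were not called without animal 1 (adjusted p 0.0635 to 0.0771).

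Glycolysis had 20 members tested, of which 10 rose, 3 fell and 7 were not called, with a median log2 fold change of 0.36. Leaving out animal 3 gave 5 higher and 0 lower. Aldoc, an aldolase better known in brain, had 133, 183 and 189 CPM in oviducts 1 to 3, against 6.66, 5.66 and 4.45 CPM in the ovaries (4.91 ± 0.23, adjusted p = 0.00019), whereas the main aldolase Aldoa was not called (0.25 ± 0.12). Eno2, another isozyme of brain, and Slc2a1, a glucose carrier, were higher by 1.44 ± 0.12 and 1.37 ± 0.09. Fatty acid oxidation moved the other way, with 0 higher, 11 lower and 9 not called of 20 tested (median log2 fold change -0.44). Lower calls without oviducts 1 and 3 numbered 9 of 20, at a median of -0.52. Hadh and Acads, of short-chain oxidation, fell by 1.03 and 1.02, and Cpt1a, the gate of fatty acids into mitochondria, had 145, 138 and 157 CPM in the oviducts and 259, 298 and 287 CPM in the ovaries (-0.94 ± 0.10, adjusted p = 0.00176). Glutathione and redox enzymes had 29 members tested, of which 5 rose, 6 fell and 18 were not called, with a median log2 fold change of 0.06. In total 37.9% were called, against 46% of all genes tested. Without animal 1 the fit called 8 higher, and without animal 3 the fit called 3 lower. The fit without oviducts 1 and 3 called 8 of 29 lower, at a median of 0.04. That fit called 8 higher. Gstt3 and Gsto1 were higher by 2.31 ± 0.21 and 1.64 ± 0.20. Gsta1 had 0.0636, 0.107 and 0.353 CPM in the oviducts and 2.95, 2.32 and 9.06 CPM in the ovaries (-4.72 ± 0.38), although alpha-class genes are close copies whose reads can be shared.

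Epithelial structure set the tissues apart. Of the keratin and junction genes, 27 of 27 tested members rose, 0 fell and 0 were not called, with a median log2 fold change of 4.10. Krt18, a keratin of simple epithelia, had 294, 302 and 400 CPM in oviducts 1 to 3, against 12, 10 and 13.7 CPM in the ovaries (4.80 ± 0.11, adjusted p = 6.63e-05). Cdh1, E-cadherin, had 203, 235 and 300 CPM in the oviducts and 6.8, 6.23 and 7.24 CPM in the ovaries (5.17 ± 0.13), and Epcam had 196, 180 and 199 CPM in the oviducts and 13.6, 11.8 and 19 CPM in the ovaries (3.72 ± 0.14). Cldn7, a claudin of tight junctions, reached 8.58 ± 0.27, Tjp3, a junction scaffold, 6.70 ± 0.14, Cldn3 6.27 ± 0.22 and Spint1, a membrane protease inhibitor, 6.19 ± 0.15. The ovaries nevertheless held keratin transcripts, such as Krt8 at 28, 25.1 and 38.7 CPM.

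Ion and water transport had 23 members tested, of which 18 rose, 0 fell and 5 were not called, with a median log2 fold change of 1.91. With animal 3 left out, the calls were 11 higher. The fit without oviducts 1 and 3 gave 17 higher and 2 lower, at a median of 1.59. Car2, a carbonic anhydrase that supplies bicarbonate, had 132, 70.8 and 93.8 CPM in oviducts 1 to 3, against 3.3, 4.76 and 3.91 CPM in the ovaries (4.57 ± 0.28, adjusted p = 0.000374). Cftr, the chloride and bicarbonate channel that feeds oviduct fluid, had 44.7, 47.3 and 43.8 CPM in oviducts 1 to 3, against 6.18, 4.81 and 3.91 CPM in the ovaries (3.21 ± 0.16, adjusted p = 0.000214). Slc26a9, an anion carrier, and Scnn1b, a sodium channel subunit, were higher by 3.59 ± 0.33 and 3.28 ± 0.42. Slc26a4 and Aqp4 had no count in the ovaries and were at least 7.43-fold and 6.11-fold higher, at 0.763 to 2.37 CPM and 0.912 to 1.21 CPM in the oviducts. Slc9a3, a sodium and proton exchanger, had 2.67, 0.107 and 2.07 CPM in the oviducts and 4.6, 4.98 and 7.83 CPM in the ovaries and was not called. Slc26a4 and Aqp4 were not called without animal 3 (adjusted p 0.0523 to 0.0622).

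The motile cilium list was higher in the oviduct almost throughout, and its median was above that of the oviduct fluid proteins in animal 2 but below it in animals 1 and 3. Of the axoneme and motile cilia genes, 47 of 48 tested members rose, 1 fell and 0 were not called, with a median log2 fold change of 6.24. Calls without animal 3 numbered 0 lower. Calls were 46 higher and 0 lower without oviducts 1 and 3, at a median of 6.50. Their summed level was 1590, 2339 and 1522 CPM in oviducts 1 to 3, against 117, 134 and 109 CPM in the ovaries, so oviduct 2 was the richest. Dnah5, an outer arm dynein, had 81.9, 128 and 81.3 CPM in oviducts 1 to 3, against 0.137, 0 and 0.214 CPM in the ovaries (9.59 ± 0.40, adjusted p = 0.000137). Dnah3, an inner arm dynein, and Spag17, of the central pair, had 42.8, 55.5 and 30.5 CPM and 15, 21.8 and 14.6 CPM in the oviducts and a single count each over the ovaries. The same holds for Pifo, of the ciliary base (31.2, 44.2 and 33.7 CPM in the oviducts), and Sntn, a protein of the cilium tip (28.6, 39.8 and 26.4 CPM). Tekt3, a tektin, had no count in the ovaries and was at least 18.5-fold higher. Spag1, a dynein assembly factor that other cells also use, was the exception, with 16.8, 18.4 and 14.2 CPM in the oviducts and 21.4, 33.5 and 33.8 CPM in the ovaries (-0.83 ± 0.19, adjusted p = 0.0207). Spag1 was not called without animal 3 (adjusted p = 0.101).

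Factors of the RFX family, among them Rfx2 and Rfx3, bind the X-box in front of many cilia genes. A full X-box, GTTNCC and GGNAAC with 2 bases between them, was searched on both strands in RefSeq windows of GRCm38.p6 that reach from 250 bases before to 50 after a start. It was in 2 of 46 windows of the cilia list (4.35%) and in 148 of all 32851 windows (0.451%). A relaxed form, GTNNCC and GNAAC with 3 bases between them, which contains the full one, was in 10 of the 46 (21.7%) and in 714 of all windows (2.17%). Windows were at hand for 41 of the 48 genes. The 250 bases before the start are printed for both genes with a full match, with the match in capitals (Ccdc151, minus strand, chr9:22002635-22002884, and Pifo, minus strand, chr3:106001498-106001747).
Ccdc151: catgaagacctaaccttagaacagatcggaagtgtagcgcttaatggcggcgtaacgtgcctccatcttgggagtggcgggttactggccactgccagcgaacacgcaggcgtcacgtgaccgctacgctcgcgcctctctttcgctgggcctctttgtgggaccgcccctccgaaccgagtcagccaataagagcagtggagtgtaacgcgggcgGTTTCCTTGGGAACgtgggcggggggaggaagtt
Pifo: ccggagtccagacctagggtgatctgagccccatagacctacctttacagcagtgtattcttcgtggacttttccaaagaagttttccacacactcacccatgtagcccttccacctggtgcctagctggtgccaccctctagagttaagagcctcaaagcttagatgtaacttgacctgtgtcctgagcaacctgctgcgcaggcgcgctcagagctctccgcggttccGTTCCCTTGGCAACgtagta
The match lies 34 bases before the start in Ccdc151 and 20 bases before it in Pifo. Ccdc151, a docking factor of outer dynein arms, had 14.8, 23.4 and 15.7 CPM in oviducts 1 to 3, against 0.344, 0.34 and 0.536 CPM in the ovaries (5.41 ± 0.30). A match describes letters only. The SF-1 (Nr5a1) site, CAAGG followed by TCA, was in none of 14 windows of the steroid synthesis list (11 of 16 genes) and in 1.56% of all windows. The CArG box, bound by serum response factor, was in 2 of 12 windows of the smooth muscle list and in 1.63% of all windows. Both windows are of Ldb3 and overlap, and the match is the same site in each, so it is a single match.

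Smooth muscle genes had 15 members tested, of which 13 rose, 0 fell and 2 were not called, with a median log2 fold change of 2.18. Des, the muscle intermediate filament, had 1462, 1202 and 1276 CPM in oviducts 1 to 3, against 121, 81.5 and 89 CPM in the ovaries (3.77 ± 0.13, adjusted p = 0.000105). Myh11, the smooth muscle myosin, had 3857, 3824 and 3415 CPM in oviducts 1 to 3, against 720, 560 and 602 CPM in the ovaries (2.57 ± 0.15), and Cnn1, calponin, had 863, 732 and 525 CPM in the oviducts and 74.1, 56.3 and 63.7 CPM in the ovaries (3.43 ± 0.17). The ovaries were not free of these transcripts, since Acta2, smooth muscle actin, averaged 854 TPM there, against 3233 TPM in the oviduct. Pgm5 and Synpo2, of muscle attachment sites, were higher by 3.56 ± 0.21 and 3.22 ± 0.13, and Myocd, the coactivator of the programme, by 0.50 ± 0.10. Casq2 and Itga8 were not called (0.51 ± 0.22 and 0.23 ± 0.11).

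Granulosa cell markers had 15 members tested, of which 0 rose, 13 fell and 2 were not called, with a median log2 fold change of -3.23. Leaving out animal 3 gave 6 lower. Leaving out oviducts 1 and 3 gave a median of -6.25. Serpine2, a protease inhibitor, fell by 2.46 and Gja1, the main gap junction protein of granulosa cells, by 2.32. Gja1 was also plentiful outside the ovary, with 481, 211 and 397 CPM in the oviducts and 1848, 1607 and 1699 CPM in the ovaries. Inhbb, the activin B subunit, had 322, 152 and 59.2 CPM in oviducts 1 to 3, against 550, 528 and 271 CPM in the ovaries (-1.59 ± 0.29), and animal 3 was the lowest in both tissues. Kctd14 was not called (111, 100 and 138 CPM in the oviducts and 80.8, 82.4 and 125 CPM in the ovaries). Luteal and theca cell markers had 13 members tested, of which 0 rose, 9 fell and 4 were not called, with a median log2 fold change of -4.29. Without animal 3 the fit called 5 lower. With oviduct 2 as the lone oviduct, the median was -5.24. Parm1 and Insl3, an insulin-like hormone of theca cells, were not called (-0.06 ± 0.18 and -1.67 ± 0.53). Inhbb was not called without animal 3 (adjusted p = 0.0563).

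Oocyte markers had 23 members tested, of which 0 rose, 3 fell and 20 were not called, with a median log2 fold change of -2.43. With animal 3 left out, the calls were 0 lower. The median without oviducts 1 and 3 was -6.43, in the oviduct singled out as low in these same markers. Without animal 2 the fit called 21 members lower, and without animal 1 it called 0. DESeq2 called 10, limma on log2(TPM + 1) called 22 and the fit without the animal block 6. Zp3 (GRCm38 chromosome 5, 135980099 to 135988624, ENSMUSG00000004948.12), a glycoprotein of the egg coat, had 22.6, 0.751 and 15.3 CPM in oviducts 1 to 3, against 46.5, 56.7 and 48.4 CPM in the ovaries (-2.40 ± 0.91, adjusted p = 0.0821). Gdf9, the growth factor by which oocytes act on granulosa cells, had 35, 1.39 and 31.5 CPM in oviducts 1 to 3, against 84.8, 95 and 84.2 CPM in the ovaries (-2.43 ± 0.93, adjusted p = 0.0844). The groups did not overlap for either gene, as in 64.7% of all genes tested, and oviduct 2 held 0.751 and 1.39 CPM of them. Without oviducts 1 and 3 the log2 fold changes were -6.06 and -5.97. The ovaries were close to each other in these genes and the oviducts were not. Nlrp5 and Npm2, maternal proteins of the egg, were called (-2.74 ± 0.82 and -2.48 ± 0.76). Oog1 was not, with 17, 10 and 28.3 CPM in the oviducts and 17.2, 20.7 and 21 CPM in the ovaries. Nlrp5 and Npm2 were not called without either animal 1 or animal 3 (adjusted p 0.0739 to 0.118).

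Genes shared by the ovarian surface epithelium and the mesothelium had 14 members tested, of which 8 rose, 2 fell and 4 were not called, with a median log2 fold change of 1.21. Msln, mesothelin, had 57.4, 91.1 and 103 CPM in oviducts 1 to 3, against 21, 11 and 20.4 CPM in the ovaries (2.27 ± 0.31, adjusted p = 0.00393), and Upk3b, a mesothelial uroplakin, had 104, 210 and 187 CPM in the oviducts and 84, 50.9 and 59.3 CPM in the ovaries (1.35 ± 0.35). Dpp4, a surface peptidase, was higher by 2.52 ± 0.28. Both organs are covered by mesothelium, and the list cannot tell these coats apart. Aldh1a2 and Lgr5 of the same list were lower, as given above. Upk3b was not called without animal 3 (adjusted p = 0.158).

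Markers of cells that most tissues share were read as well. Of the endothelial markers, 3 of 14 tested members rose, 2 fell and 9 were not called, with a median log2 fold change of 0.07. In total 35.7% were called, against 46% of all genes tested. Calls without animal 1 numbered 1 lower, and calls without animal 3 numbered 1 higher and 1 lower. Setting oviducts 1 and 3 aside gave 4 higher and 1 lower and a median of 0.14. Plvap, of fenestrated capillaries, rose by 1.62 ± 0.17, and Cdh5, the endothelial cadherin, had 67.9, 68 and 73.3 CPM in the oviducts and 103, 107 and 95.8 CPM in the ovaries (-0.54 ± 0.09, adjusted p = 0.00731). Kdr, the main VEGF receptor, was not called (-0.30 ± 0.10). Fibroblast and matrix genes had 16 members tested, of which 11 rose, 2 fell and 3 were not called, with a median log2 fold change of 0.87. Leaving out animal 1 gave 7 higher. Postn, periostin, had 488, 476 and 519 CPM in oviducts 1 to 3, against 49.1, 73.2 and 25.7 CPM in the ovaries (3.44 ± 0.34, adjusted p = 0.00145), and Fn1, fibronectin, was higher by 1.92 ± 0.13, while Pdgfra had 127, 92 and 105 CPM in the oviducts and 217, 206 and 235 CPM in the ovaries (-1.03 ± 0.11).

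Macrophage and neutrophil markers had 13 members tested, of which 3 rose, 1 fell and 9 were not called, with a median log2 fold change of 0.28. In total 30.8% were called, against 46% of all genes tested. Without animal 1 the fit called 6 higher, and without animal 3 the fit called 1 higher and 2 lower. The fit without oviducts 1 and 3 gave 2 higher and 2 lower, at a median of 0.28. Itgam, an integrin of myeloid cells, rose by 1.44 ± 0.16, and C1qa, a complement component made by macrophages, had 41.6, 48.5 and 51.8 CPM in the oviducts and 46.4, 36.1 and 35 CPM in the ovaries (0.28 ± 0.16). Lymphocyte markers had 11 members tested, of which 2 rose, 0 fell and 9 were not called, with a median log2 fold change of 0.70. With animal 1 left out, the calls were 1 higher, and with animal 3 left out, the calls were 0 higher. Jchain, the joining chain of secreted antibodies, had 1.72, 15.4 and 2.67 CPM in oviducts 1 to 3, against 0.824, 0.226 and 0.214 CPM in the ovaries (3.51 ± 0.98), highest in oviduct 2. Adipocyte markers had 10 members tested, of which 1 rose, 0 fell and 9 were not called, with a median log2 fold change of 2.05. Calls were 2 higher and 0 lower without oviducts 1 and 3, at a median of 1.89. Adipoq had 79.4, 155 and 140 CPM in the oviducts and 86.9, 18.2 and 16 CPM in the ovaries and was not called (2.09 ± 0.75). Ovary 1 stood apart from the other ovaries here, with a summed level of 1156 CPM, against 344 and 320 CPM in ovaries 2 and 3, and the oviducts held 1023, 1556 and 1813 CPM. Without animal 1, 10 adipocyte markers were called higher, and DESeq2 with all animals called 7. Cidea, a lipid droplet protein, was called with all animals (9.98, 11.1 and 10.5 CPM in the oviducts and 0.206, 0.17 and 0.107 CPM in the ovaries, 5.99 ± 0.33). The mixed list of nerve, skeletal muscle, pancreas and blood genes had 12 members tested, of which 5 rose, 1 fell and 6 were not called, with a median log2 fold change of 0.88. Calls without animal 2 numbered 2 lower, and calls without animal 3 numbered 3 higher and 0 lower. Setting oviducts 1 and 3 aside gave 6 higher and 2 lower and a median of 1.27. Acta1, skeletal muscle actin, rose by 5.80 ± 0.46, and Tubb3, a neuronal tubulin, fell by 3.06. Jchain and Tubb3 were not called without animal 3 (adjusted p 0.0775 to 0.165).

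Cell cycle and DNA replication genes were nearly all lower in the oviduct, with 2 higher, 35 lower and 0 not called of 37 tested (median log2 fold change -1.63). Leaving out animal 1 gave 1 higher, and leaving out animal 3 gave 1 higher and 7 lower. The fit without oviducts 1 and 3 called 35 of 37 lower, at a median of -2.37. That fit called 1 higher. Mki67, a marker of cycling cells, had 36.9, 5.2 and 25.7 CPM in oviducts 1 to 3, against 75.2, 88.5 and 118 CPM in the ovaries (-2.35 ± 0.58, adjusted p = 0.0247). Top2a, the topoisomerase of dividing cells, had 29.9, 9.23 and 29.8 CPM in the oviducts and 76.9, 90.4 and 141 CPM in the ovaries (-2.28 ± 0.37). Oviduct 2 was the lowest for both, as for the ovarian markers, and without oviducts 1 and 3 the log2 fold change of Mki67 was -4.17. Bub1, Ccne2, Ccnb1 and Bub1b fell by 2.56, 2.35, 2.31 and 2.31. Ccnd1, the D-type cyclin, went the other way, with 111, 161 and 135 CPM in oviducts 1 to 3, against 21.2, 21.2 and 22.7 CPM in the ovaries (2.63 ± 0.13, adjusted p = 0.000214), and its relative Ccnd2 had 140, 152 and 151 CPM in the oviducts and 251, 230 and 239 CPM in the ovaries (-0.70 ± 0.09). Mki67, Top2a, Bub1, Ccnb1 and Bub1b were not called without animal 3 (adjusted p 0.0568 to 0.122).

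Brca1 and Trp53 are altered in the tumour models of the series, in which Rb function is inhibited, and both were read in these wild-type tissues with Rb1. Brca1 (GRCm38 chromosome 11, 101488764 to 101551955, ENSMUSG00000017146.12), which repairs DNA breaks, had 5.21, 2.09 and 5.29 CPM in oviducts 1 to 3, against 13.7, 15.3 and 22 CPM in the ovaries (-2.08 ± 0.31, adjusted p = 0.00528), all ovaries above all oviducts. Trp53 (GRCm38 chromosome 11, 69580359 to 69591873, ENSMUSG00000059552.13), which encodes p53 and halts damaged cells, had 100, 87.8 and 87.4 CPM in oviducts 1 to 3, against 111, 118 and 117 CPM in the ovaries (-0.33 ± 0.09, adjusted p = 0.0364), a small difference. Rb1, the pocket protein that holds back E2F factors, had 24.7, 25.9 and 24 CPM in oviducts 1 to 3, against 20.4, 22.5 and 27.6 CPM in the ovaries and was not called (0.09 ± 0.13, adjusted p = 0.611). Brca1 was not called without animal 3 (adjusted p = 0.0514). Trp53 was not called without either animal 2 or animal 3 (adjusted p 0.125 to 0.178).

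**Figure D5:**
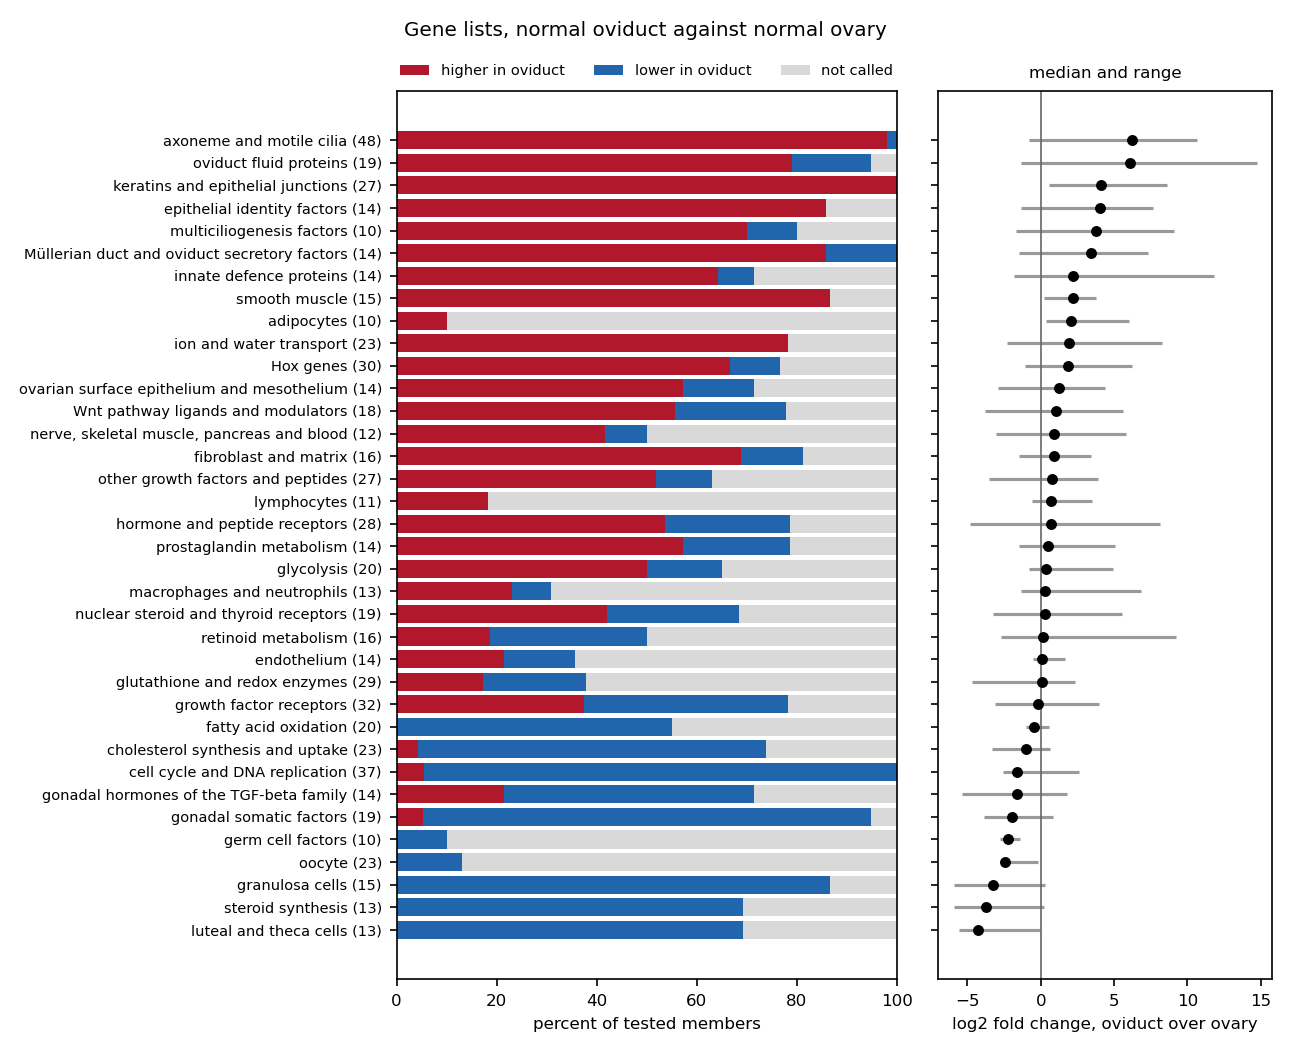
Left, the percent of tested members of each list called higher in the oviduct (red), lower (blue) or not called (grey), with the number tested in brackets. Right, the median (dot) and range (line) of their log2 fold changes, from a median of 6.24 for the axoneme and motile cilia to -4.29 for luteal and theca cells.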

How the data were processed

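RNA of whole oviducts and ovaries was sequenced. Per the submitters' processing notes, which name no order or role, bcl2fastq, cutadapt 1.18, STAR 2.7.0f, RSEM 1.3.1 and Picard were used with the mm10 (GRCm38) build, and no source used here states strandedness. The authors deposited a table of expected counts from RSEM and a table of TPM for 55450 genes, and 0 columns could not be matched to a sample. All gene IDs were found in GENCODE M21, which gave the coordinates.

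Expected counts were rounded, filtered (filterByExpr of edgeR 4.0.16 in R 4.3.3, minimum count 10, minimum total 15), scaled by TMM (factors 0.968 to 1.031) and fitted with animal and tissue as terms, leaving 2 residual degrees of freedom. Genes tested were 17334. P-values were adjusted by Benjamini-Hochberg. The standard error is the size of the log2 fold change divided by the square root of the F statistic. The deposited TPM values were used for levels and, with limma 3.58.1 on log2(TPM + 1) after requiring at least 1 TPM in 3 libraries, as an alternative. DESeq2 1.42.0 was another, and the others were RLE size factors, no filter, no animal block, a pseudocount of 0.1, each animal left out, and oviducts 1 and 3 left out. Tables were made with pandas 2.3.3.

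The animal block rests on the numbers in the titles. In the data, deviations of tissues of the same animal from their group means correlated at -0.0844, -0.0435 and 0.0598. Those of tissues of different animals correlated at -0.0754 to 0.114. By this measure tissues of the same animal were no closer than tissues of different animals. On simulated counts of 17029 genes, the test called 69 of 100 genes changed by 1 log2 unit and 93 of 98 changed by 2, with 6 false calls. Those counts had the spread typical of genes of the same level and no animal effect. They had no uneven ovarian transcripts, and few genes were changed. The shares called therefore need not hold for genes that vary more among the oviducts, such as the oocyte markers. With the animal block, p-values rest on how the difference between oviduct and ovary varies among these animals.

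The comparison and all 36 gene lists were chosen with earlier results of these data known. Named genes are landmark genes, per list up to 6 called in the main direction, up to 3 against it and uncalled members, the 15 largest differences in each direction with a mean of at least 10 CPM in the higher tissue, the 10 most abundant per tissue, and 5 genes with the opposite sign in animal 2. Where an ovary group held no count, the fold is a lower bound from 3 counts per library, for counting error only. Genes with 1 to 3 ovary counts in total have levels and no fold. Genes with close copies are uncertain where reads could be split between them. Some list members are counted but not reported by name here.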

Additional observations from a re-analysis of the deposited data

How the results depend on the processing

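Leaving out each animal gave 4076 to 6699 calls, 2724 to 3949 of them higher and 1352 to 2826 lower, against 7971, 4434 and 3537 with all animals. Each of these fits left 1 residual degree of freedom. The lowest counts came without animal 3, where 4003 of the calls were shared with the full fit. All other alternatives stayed within 1.5 times of these 3 counts. Without the animal block, pairing no tissues, 9191 genes were called, 4946 higher and 4245 lower. DESeq2 called 7476, RLE size factors 8018, no filter 7543, limma on log2(TPM + 0.1) 7435 and the fit without oviducts 1 and 3 8519. Of 274 named genes with a fold change, 266 kept their call and direction without the block, 265 with DESeq2 and 193 of 273 without animal 3. Without oviducts 1 and 3 signs turned for Krt84 (-3.42 against 1.19), Gsdmc2 (-3.56 against 0.31) and Clca1 (-0.37 against 8.28). Add2 (-0.64 against 1.22) and Rgs1 (-0.49 against 1.12) turned as well, as did Gm10925 and Gm28661, which were near 0 in both fits. Genes named for an opposite sign in animal 2, Krt84, Clca1, Add2 and Rgs1 among them, turn here by that choice. Such turns are no separate result. The cause of the opposite signs was not tested. Counts of oocyte and germ cell factor calls differed between tools, as given with those lists. Depth limits genes with a few counts per library, and n = 3 with 2 residual degrees of freedom limits all calls.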

Other observations

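Of the genes tested, predicted genes apart, 1032 had one sign of the oviduct to ovary ratio in animals 1 and 3 and the other sign in animal 2. The same count with animal 1 or animal 3 as the odd one was not made, so 1032 does not set animal 2 apart. Among the 5 with the widest split, Clca1 is given above and 3 follow. Add2, an adducin of the membrane skeleton, had 25.5, 3.27 and 13 CPM in oviducts 1 to 3, against 3.23, 8.21 and 3.81 CPM in the ovaries. Rgs1, a regulator of G protein signalling in immune cells, had 1.46, 1.02 and 10.6 CPM in oviducts 1 to 3, against 0.687, 2.72 and 0.858 CPM in the ovaries. Krt84, a keratin, had 8.52, 0.107 and 4.08 CPM in oviducts 1 to 3, against 1.03, 1.76 and 0.858 CPM in the ovaries. Oviduct 2 lay below ovary 2 in each of these genes, while oviducts 1 and 3 lay above their own ovaries. None was called (edgeR adjusted p of 0.304, 0.425 and 0.488).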
